A study of Mus musculus with 9 samples.

Results

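Androgen-binding protein is a secreted protein of mouse saliva, and 7 of its genes are described here: the alpha subunit genes Scgb1b2, Scgb1b24 and Scgb1b27, and the beta-gamma subunit genes Scgb2b2, Scgb2b24, Scgb2b26 and Scgb2b27. They were taken by name from a table of read counts for 54532 Ensembl gene identifiers, in which 64 genes and pseudogenes of this family were measured. The members were chosen by gene name with the measured counts of these libraries known, among them the difference of Scgb2b24 between 30 and 60 days, so the values for that comparison are a description and carry no p-value. The libraries are bulk RNA sequencing of submandibular salivary glands from wild-type mice, all irradiated with 10 Gy, in 3 groups of 3 collected 30, 60 or 90 days later. Total RNA came from 4 sections of 50 µm per gland. No unirradiated gland was analysed here, so each comparison sets one irradiated group against another, and the days passed and the age of the mice cannot be told apart. The labels give neither age nor sex, and nothing in them says how many mice or irradiation sessions lie behind the 9 samples, so the p-values measure only the spread between these samples.

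Secretoglobins are small secreted proteins that work as dimers. In androgen-binding protein an alpha subunit, encoded by an Scgb1b gene, is joined by disulfide bridges to a beta or gamma subunit, encoded by an Scgb2b gene. The protein binds androgens, reaches the fur through saliva, and is known for its part in mate recognition between mouse subspecies. Its genes multiplied in the mouse lineage on chromosome 7 and lie in neighbouring pairs, an alpha gene and a beta-gamma gene that are transcribed away from each other. The forms of saliva are those of Scgb1b27, Scgb2b26 and Scgb2b27, and RefSeq lists "lacrimal" among the other names of Scgb2b2.

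Because the genes are copies of each other, how far their reads can be told apart bears on every value. The first 90 coding bases of the abundant beta-gamma genes and Scgb2b24 are shown from GENCODE transcripts (GRCm38), with capitals at each base that differs from Scgb2b27 at the same position:
Scgb2b27: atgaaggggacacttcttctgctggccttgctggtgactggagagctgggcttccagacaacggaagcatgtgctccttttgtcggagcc
Scgb2b26: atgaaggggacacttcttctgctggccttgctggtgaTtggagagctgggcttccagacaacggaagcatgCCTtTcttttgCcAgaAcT
Scgb2b24: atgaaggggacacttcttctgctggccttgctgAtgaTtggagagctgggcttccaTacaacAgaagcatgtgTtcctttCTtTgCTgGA
Within this stretch Scgb2b26 differed from Scgb2b27 at 9 bases and Scgb2b24 at 12. Over the whole coding sequence Scgb2b26 was 73.2% identical to Scgb2b27, and Scgb2b24 was 68.2% identical to Scgb2b26 and 65.5% to Scgb2b27. The alpha genes Scgb1b27 and Scgb1b24 were 77.9% identical, with 14 differences in the first 90 coding bases, marked in the same way:
Scgb1b27: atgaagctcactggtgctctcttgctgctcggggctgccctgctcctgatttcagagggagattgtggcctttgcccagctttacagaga
Scgb1b24: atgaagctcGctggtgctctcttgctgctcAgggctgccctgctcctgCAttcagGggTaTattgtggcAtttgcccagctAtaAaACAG
The longest run shared base for base between Scgb2b24 and an abundant member was 42 bases, with Scgb2b26, and between Scgb2b26 and Scgb2b27 it was 45. Of all 50-base windows, 0% of the Scgb1b27 and Scgb2b24 transcripts, 1.7% of Scgb2b26 and 6.5% of Scgb2b27 also occurred in a transcript of another gene. At 75 and 100 bases the share was 0% for all 7 members. Bases of a member that are annotated only in its other transcripts were not searched. The annotated exons of Scgb2b27 come to 1571 bases against 512 in its reference transcript. The read length and the treatment of reads that match several genes are not given in the sources used here, and a read with sequencing errors can still be placed on the wrong copy.

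Nearly all expression of the family came from 3 genes. Scgb1b27, the alpha subunit gene of saliva (ENSMUSG00000066583, chr7:34021483-34022881, plus strand in GRCm38), ranked 3rd of all genes by total count. Scgb2b27 (ENSMUSG00000066584, chr7:34011921-34013942, minus strand) ranked 5th and Scgb2b26 (ENSMUSG00000066586, chr7:33943002-33945040, minus strand) 7th. Together with 4 members of low count they took 6.61% to 8.97% of all counts of a library. All other genes of the family, the 4 low members included, held 428 of the family's 14900075 counts.

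The members are compared with each other per kilobase of transcript, as CPM (counts per 1000000 counts after TMM scaling, which evens out libraries whose totals are dominated by a few genes) divided by the length of 1 reference transcript per gene. On that scale Scgb1b27 lay between 53682 and 98815 in the 9 libraries, with a median of 79292. Scgb2b27 lay between 43602 and 67979 with a median of 56004, and Scgb2b26 between 15855 and 24014 with a median of 18985. On this length the ranges of Scgb1b27 and Scgb2b27 overlapped, but within each library Scgb1b27 was 1.21 to 1.57 times Scgb2b27. Scgb2b26 lay below both. The order of the beta-gamma genes depends on the length used. The exons annotated for Scgb2b27 come to 1571 bases against 512 in its reference transcript, and those of Scgb2b26 to 579 on either measure. Per kilobase of all annotated exons Scgb2b27 lay between 14210 and 22155 (median 18252) and Scgb2b26 between 15855 and 24014 (median 18985), so the ranges overlapped, while Scgb1b27, between 26333 and 48473, lay above both. Scgb2b24 came next, between 0.407 and 5.61 with a median of 2.25. Scgb1b24 did not exceed 0.762, Scgb1b2 0.280 and Scgb2b2 0.0802, and the order of these 3 cannot be read at such counts.

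**Figure D1:**
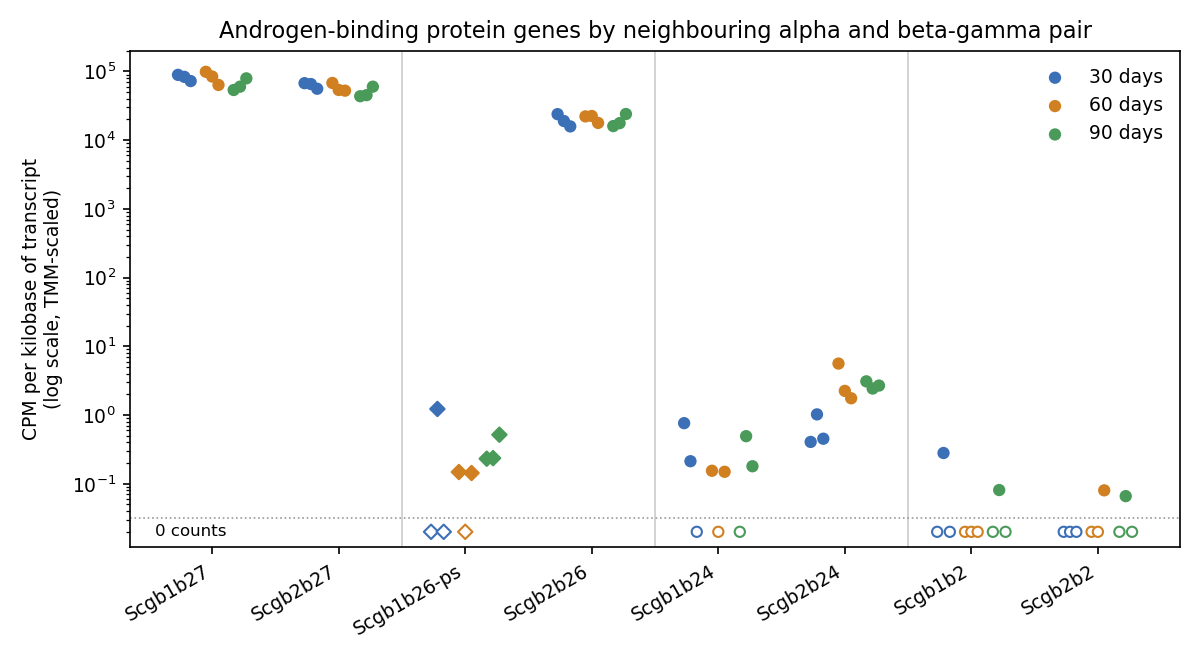
Level of each gene in CPM per kilobase of transcript (log axis), in each of the 9 libraries, coloured by time after irradiation and ordered by neighbouring pair; open symbols on the lowest line are libraries with 0 counts, and diamonds mark the pseudogene Scgb1b26-ps. The 3 genes at the top lie between 15855 and 98815, and no other gene passes 5.61.

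Scgb2b26 was abundant without its neighbour, while in the other pairs both genes were abundant or both had low counts. Scgb1b27 and Scgb2b27, whose 5′ ends lie 7541 bases apart, were both abundant, with 7138353 and 5543399 counts in all. Scgb2b26 had 2217895 counts, while the alpha gene beside it is annotated as a pseudogene, Scgb1b26-ps, and had 15. In the pair of Scgb2b24 (ENSMUSG00000046438, chr7:33737190-33739312, minus strand) and Scgb1b24 (ENSMUSG00000078753, chr7:33743799-33744982, plus strand), whose 5′ ends lie 4487 bases apart, there were 245 and 11 counts. Scgb1b2 (ENSMUSG00000062556, chr7:31290519-31291821, minus strand) had 3 counts, in 2 of 9 libraries, and Scgb2b2 (ENSMUSG00000036521, chr7:31290508-31304977, plus strand) had 2 counts, in 2 libraries. The annotated spans of Scgb1b2 and Scgb2b2 overlap on opposite strands. Reads from bases in exons of both cannot be assigned without strand, whose use is not given. Of the 50-base windows of the Scgb1b2 reference transcript, 1.9% also occurred in Scgb2b2, and 0% of its 75-base windows did. A count of 0 in a library allows up to 3 counts, or 0.115 to 0.181 CPM, by counting error alone.

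The promoters of the beta-gamma genes share a stretch with small differences, printed here because these copies differ so widely in level. It lies between 78 and 232 bases before the RefSeq start, in no exon annotated by GENCODE (for Scgb2b2 within the span of the longer GENCODE gene), and is given 5′ to 3′ on the gene's strand (RefSeq, GRCm38.p6), with capitals from tgtttgt to the next caga:
Scgb2b27: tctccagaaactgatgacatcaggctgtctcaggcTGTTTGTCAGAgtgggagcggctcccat
Scgb2b26: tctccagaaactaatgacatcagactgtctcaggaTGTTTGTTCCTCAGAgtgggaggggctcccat
Scgb2b24: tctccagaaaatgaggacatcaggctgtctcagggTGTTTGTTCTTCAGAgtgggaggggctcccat
Scgb2b2: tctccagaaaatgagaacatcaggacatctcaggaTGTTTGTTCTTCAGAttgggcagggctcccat
Their positions are chr7:34014020-34014082, chr7:33945132-33945198 and chr7:33739461-33739527 on the minus strand, and chr7:31302544-31302610 on the plus strand. The capital segment is 11 bases long in Scgb2b27 and 15 in the others, abundant Scgb2b26 included. Outside this stretch the promoters differ more. Over the 250 bases before the start, gaps counted, Scgb2b27 was 41.8% to 49.5% identical to the others. Scgb2b26, Scgb2b24 and Scgb2b2 were 68.9% to 78.7% identical to each other. The part of these differences in the levels was not tested.

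In each library the alpha gene and the beta-gamma genes together came to nearly equal levels. Per kilobase, alpha divided by summed beta-gamma was 0.976, 0.987 and 1.01 in the 30-day samples 1 to 3, 1.10, 1.10 and 0.904 at 60 days, and 0.900, 0.956 and 0.944 at 90 days. Group means (SD, n = 3 each) were 0.990 ± 0.0163 for 30 days, 1.03 ± 0.114 for 60 days and 0.933 ± 0.0292 for 90 days. The 90-day samples lay below the 30-day samples without overlap. At 60 days, samples 1 and 2 lay above all 30-day samples and sample 3 among the 90-day samples. In raw counts the ratio was lower, 0.925 ± 0.0174, 0.963 ± 0.104 and 0.867 ± 0.0262 (SD, n = 3 each), with the same separation of 30 from 90 days. As a yardstick, 23.2% of all tested genes did not overlap between 30 and 90 days. No test was made of these ratios, and the level of transcripts says nothing of how much protein of each subunit was made.

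How much of the beta-gamma level Scgb2b26 supplied depends on the length used. Its share of the summed Scgb2b26 and Scgb2b27 level per kilobase of reference transcript was 26.2%, 22.5% and 22.1% in the 30-day samples, 24.6%, 29.5% and 25.3% at 60 days, and 26.9%, 28.1% and 28.6% at 90 days. The 30- and 90-day samples did not overlap, and the means were 23.6% ± 2.26 and 27.9% ± 0.886 (SD, n = 3 each). The share at 60 days, 26.5% ± 2.63 (SD, n = 3), overlapped both. Per kilobase of all annotated exons the mean shares (SD, n = 3 each) were 48.5% ± 3.07, 52.4% ± 3.31 and 54.2% ± 1.10 in time order, and in raw counts 25.8% ± 2.40, 28.9% ± 2.78 and 30.4% ± 0.928. A change of length alters the ratio of Scgb2b26 to Scgb2b27 by the same factor in every library. The order of the libraries is therefore the same on all these measures by construction, and its agreement adds no support. Shares within a library do not depend on how libraries are scaled.

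**Figure D2:**
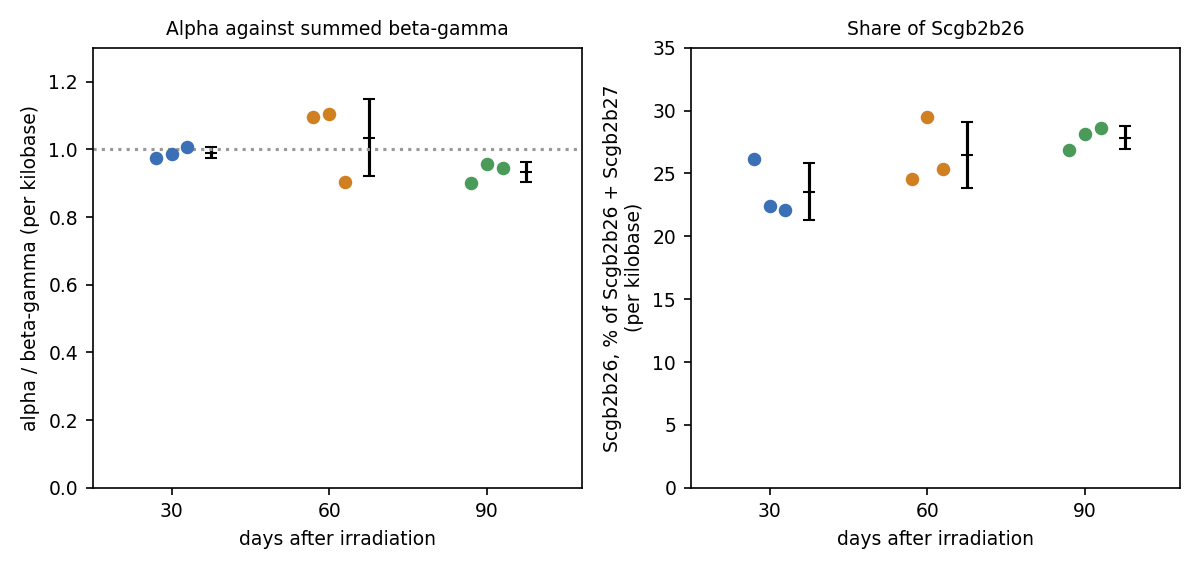
Left, the level of the alpha genes divided by that of the beta-gamma genes, and right, the share of Scgb2b26 in Scgb2b26 plus Scgb2b27, both per kilobase of transcript, by days after irradiation; points are libraries and black bars the mean ± SD of 3. The ratio stays between 0.900 and 1.10, and the share of Scgb2b26 runs from 22.1% to 29.5%.

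The 4 members that passed the filter on low counts (Scgb1b27, Scgb2b24, Scgb2b26 and Scgb2b27) were tested in a fit over 15224 genes, with Benjamini-Hochberg adjusted p under 0.05 as the threshold. Scgb1b27 measured 43946, 41128 and 35692 CPM in the 30-day samples 1 to 3, 48716, 41534 and 31353 CPM at 60 days, and 26465, 29606 and 39091 CPM at 90 days. The highest and lowest 60-day samples enclosed all 30-day samples, and 90-day sample 3 stood above the other two of its group and within the range of 30 days. Means were 40256 ± 4196, 40534 ± 8725 and 31721 ± 6573 CPM (SD, n = 3 each). The log2 fold change of Scgb1b27 was 0.01 ± 0.21 (SE) for 60 against 30 days. It was -0.35 ± 0.21 for 90 against 60 days (edgeR's quasi-likelihood test, adjusted p = 0.582) and -0.34 ± 0.21 for 90 against 30 days (adjusted p = 0.452), neither past the threshold.

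Scgb2b27, the beta-gamma gene with the most counts, measured 34552, 33572 and 28674 CPM at 30 days, 34805, 27530 and 26897 CPM at 60 days, and 22324, 23122 and 30729 CPM at 90 days. Again 90-day sample 3 overlapped the earlier samples, and in TMM-scaled CPM the other 90-day samples lay below all of them. As a share of counts the lowest sample was instead 60-day sample 2, at 2.45%. The log2 fold change was -0.12 ± 0.20 (SE) for 60 against 30 days, -0.23 ± 0.20 for 90 against 60 days (edgeR, adjusted p = 0.734) and -0.35 ± 0.20 for 90 against 30 days (adjusted p = 0.396). Scgb2b26 measured 13837, 10992 and 9180 CPM at 30 days, 12842, 13015 and 10322 CPM at 60 days, and 9278, 10236 and 13904 CPM at 90 days. Its 3 groups overlapped throughout. Its log2 fold change was 0.09 ± 0.20 (SE), -0.11 ± 0.20 (edgeR, adjusted p = 0.887) and -0.03 ± 0.20 (adjusted p = 0.968) for the same comparisons. With library-size scaling alone the signs of its 90 against 60 and 90 against 30 day values turned, to 0.05 and 0.20, while the median over all genes moved to 0.17 and 0.24. On that scaling the 90 against 30 day values of Scgb1b27 and Scgb2b27 were each -0.13. For none of these 3 genes does the missed threshold show equal levels: 2 SE on either side of the 90 against 30 day value run from -0.77 to 0.08 for Scgb1b27, from -0.74 to 0.05 for Scgb2b27 and from -0.42 to 0.37 for Scgb2b26.

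As a share of all counts, without any scaling factor, the members together made up (SD, n = 3 each) 7.84% ± 0.484 for 30 days, 7.95% ± 0.894 for 60 days and 7.41% ± 0.783 for 90 days, and the groups overlapped. Mucl2, an acinar product and the most abundant gene, stood at 264698 to 519020 CPM. In TMM-scaled CPM, where the members and Mucl2 share a library's scaling factor, the 30-day sample 1 and the 90-day sample 3 had the highest members' sums of their groups and also the highest Mucl2, 519020 and 395114 CPM. As a share of counts the members' highest value of the 30-day group was that of sample 2, at 8.39%, against 7.61% in sample 1. Of the 90-day group sample 3 was still highest, at 8.17%. At 60 days the scaled values did not go together, since sample 1 had the highest members' sum and sample 2 the highest Mucl2, 443994 CPM. The part of Mucl2 in the members' values was not tested. In bulk tissue, fewer cells of a type and less RNA per cell cannot be told apart.

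Scgb2b24 was the tested member whose later groups differed most from the 30-day group, at a level far below that of its abundant relatives. Its counts were 3, 9 and 4 in the 30-day samples, 68, 26 and 22 at 60 days, and 48, 37 and 28 at 90 days. In CPM these were 0.213, 0.535 and 0.237, then 2.94, 1.18 and 0.918, then 1.62, 1.27 and 1.41. All 60- and 90-day samples lay above all 30-day samples, and 60-day sample 1 stood apart from its group. Means were 0.328 ± 0.180, 1.68 ± 1.10 and 1.43 ± 0.175 CPM (SD, n = 3 each).

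The log2 fold change of Scgb2b24 was 2.31 ± 0.54 (SE) for 60 against 30 days and -0.23 ± 0.44 for 90 against 60 days (edgeR, adjusted p = 0.902). For 90 against 30 days it was 2.09 ± 0.54, a comparison that shares the 30-day libraries with the first and is no separate evidence. With 3 to 9 counts at 30 days, Scgb2b24 passed the filter on low counts through its 60- and 90-day samples alone, so its differences from 30 days are given with no p-value. Pooled over samples, 113 counts against 16 gave a 4.29-fold difference between 90 and 30 days, which is a description and leaves out the spread between samples. With samples left out in turn, its log2 fold change for 90 against 30 days ran from 1.88 to 2.64. The threshold of the fit was missed without 30-day sample 1, 30-day sample 3 or any of the 90-day samples. Since the gene entered the fit through its later samples, nothing is read from where the threshold was met or missed. Without 60-day sample 1 the 60 against 30 day value was 1.64.

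**Figure D3:**
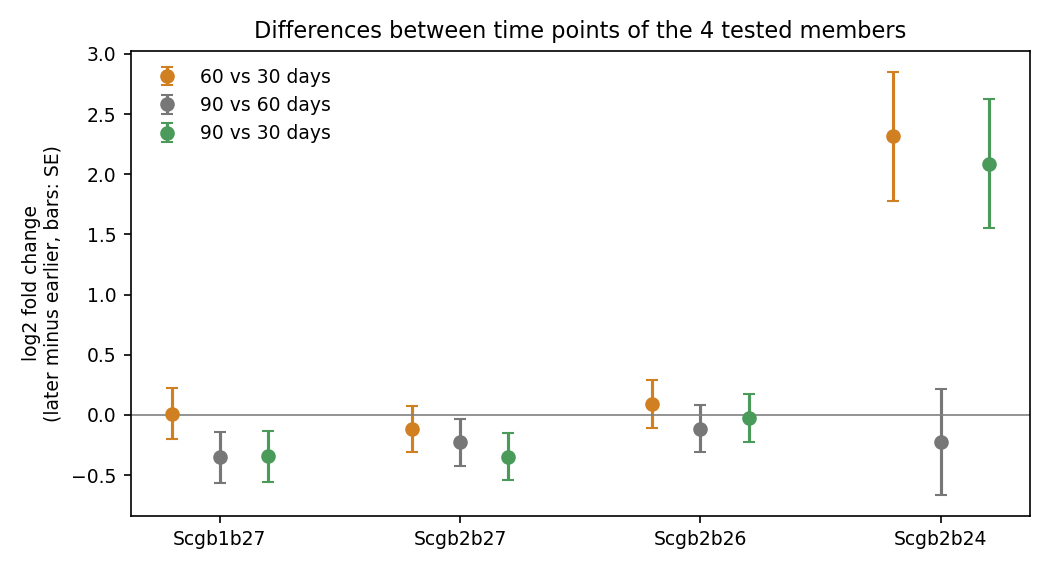
Log2 fold change (later minus earlier) with its SE for the 4 tested members in each comparison of time points; the zero line marks no difference. Scgb2b24 stands at 2.31 and 2.09 above its 30-day level, and the values of the other members lie between -0.35 and 0.09.

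Counted over the list, 1 of the 4 tested members passed between 30 and 60 days, higher later, where 1.56% of all tested genes passed and 1.14% were higher. Its groups did not overlap, which held for 16.9% of all tested genes. That member is the one whose difference was known, and nothing is read from these counts. Between 60 and 90 days 0 passed with edgeR and 0 with DESeq2, 0 had an unadjusted p under 0.05, where 0.256% of all tested genes passed (0.092% higher) and 10.8% had such an unadjusted p. No tested member was free of overlap between those groups, against 15.9% of all tested genes. Between 30 and 90 days 1 passed, Scgb2b24, higher later, where 3.57% of all tested genes passed and 1.81% were higher. It was also the only tested member whose groups did not overlap, which held for 23.2% of all tested genes. Since this gene entered the test through its later samples, nothing is read from these counts either. The 3 members outside the test had 16 counts in all.

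The counts of Scgb2b24 were also set against those of its abundant relatives. For every 1000000 counts of Scgb2b26 and Scgb2b27 together, it had 4.39, 12 and 6.26 counts in the 30-day samples, 61.6, 29.0 and 24.7 at 60 days, and 51.2, 38.1 and 31.5 at 90 days. The lowest later sample was thus above the highest 30-day sample on this measure too. The log2 fold changes of Scgb2b26 and Scgb2b27 lay between -0.35 and 0.09, so this measure largely repeats the difference in CPM. The part of misplaced reads in the values of Scgb2b24 was not tested.

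**Figure D4:**
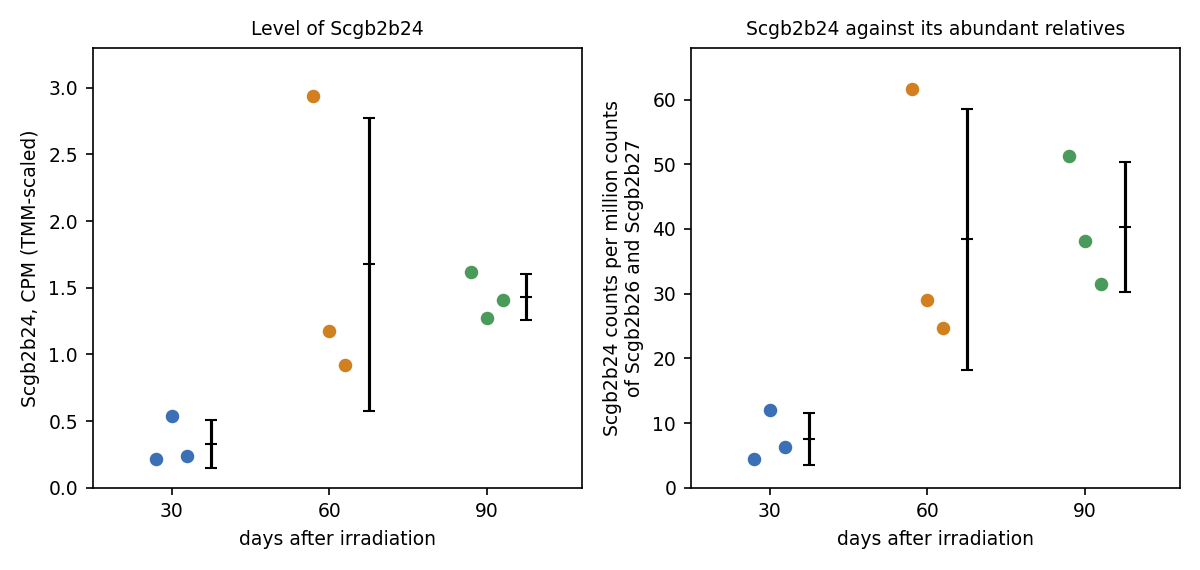
Left, Scgb2b24 in CPM, and right, its counts per 1000000 counts of Scgb2b26 and Scgb2b27, by days after irradiation; points are libraries and black bars the mean ± SD of 3. On both scales every 30-day sample lies below every later one, and 60-day sample 1 is the highest of all, at 2.94 CPM and 61.6 counts per 1000000.

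Products of the granular convoluted ducts, the duct segment of the rodent submandibular gland that stores growth factors and kallikreins under androgen and thyroid control, were also higher in the later samples. Of 18 listed products (Egf, Ren1, kallikreins and Crisp genes), 13 passed as higher at 60 than at 30 days and 15 as higher at 90 than at 30 days, against 1.14% and 1.81% of all tested genes, and none passed as lower. Those that did not pass also had fold changes above 0, such as Klk1 with 0.23 and 0.03 on the log2 scale. The list had median log2 fold changes of 1.82 and 1.89, against -0.002 and 0.014 over all genes. Between 60 and 90 days 0 of 18 passed (median 0.08). The summed level of 4 duct markers (Egf, Klk1b22, Klk1b9 and Ren1) was 1819 to 3792 CPM at 30 days, 10026 to 13209 at 60 days and 8710 to 14211 at 90 days. The part of this shift in the values of Scgb2b24 was not tested.

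Beyond the 7 members, the table held 57 further Scgb1b and Scgb2b genes and pseudogenes, of which 41 had 0 counts and none passed the filter. Their counts summed to 5, 9 and 3 in the 30-day samples, 27, 2 and 42 at 60 days, and 20, 21 and 38 at 90 days, so 60-day sample 2 was as low as the 30-day samples. The genes named next were chosen after their values were seen. The highest was Scgb2b7, with 47 counts over the 9 libraries, followed by Scgb1b29 with 30 and Scgb2b20 with 25. Scgb1b7 had 11 counts, which fell in 60-day sample 3 and 90-day sample 3 only. Among 5 secretoglobins outside the androgen-binding protein family, Scgb1c1 alone passed the filter. It measured 7.30 to 8.58 CPM at 30 days, 14.1 to 16.3 at 60 days and 16.2 to 19.7 at 90 days. It rose by 0.95 ± 0.14 (SE) on the log2 scale from 30 to 60 days (edgeR, adjusted p = 0.00139) and was 1.18 ± 0.14 higher at 90 than at 30 days (adjusted p = 0.000165). Scgb1a1 and Scgb2a2 had 0 counts.

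Likeness to other genes was measured as Pearson's r of log2 CPM over the 9 libraries, among 7417 genes with a mean of at least 10 CPM, and is a description with no p-value. Among the members Scgb1b27 and Scgb2b27 had r = 0.921, Scgb1b27 and Scgb2b26 0.770, and Scgb2b27 and Scgb2b26 0.654. Scgb2b24 had r = -0.09, -0.261 and 0.124 with these 3 in turn. Outside the family, Zcchc17 (r = 0.956), Drg1 (0.941) and Aldh9a1 (0.939) were most like Scgb1b27, and Gcsh (0.961), Slc25a5 (0.946) and Abtb2 (0.920) most like Scgb2b27. The genes most like Scgb2b24 were 0610040J01Rik (0.957), Ube2g2 (0.955) and Tmem163 (0.948). These are the highest of all values computed, and all genes of a library share its depth and scaling.

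Library totals ran from 16541396 to 26065856 counts, lowest at 30 days. The acinar genes Mucl2, Prol1, Pip, Lpo, Aqp5 and Bhlha15 and the granular duct markers were detected in all 9 libraries, while Smr3a of the acinar list had 1 count. Dcpp1 of that list was low, at 0.0709 to 1.42 CPM at 30 days and at most 7.60 CPM later. Its log2 fold changes were above 0, 2.01 for 60 and 2.28 for 90 against 30 days, and neither passed. The acinar list summed to 456791 to 646838 CPM at 30 days, 365204 to 532048 at 60 days and 310347 to 457566 at 90 days. Most of this was Mucl2, which passed in no comparison. Of 7 tested acinar genes, 1 passed as lower at 90 than at 60 days and 2 as lower at 90 than at 30 days. Markers of the lacrimal gland, where other copies of the family are expressed, were at or near 0: Esp1 had 0 counts, and Lcn11 and Mup4 had 2 counts each over the 9 libraries. Parotid markers summed to 20.8 to 72.9 CPM at 30 days, 61.0 to 233 at 60 days and 86.4 to 418 at 90 days, mostly Bpifa2, and sublingual markers to at most 9.90 CPM. Of 3 tested parotid markers Amy1 passed, with log2 fold changes of 1.08 ± 0.15 (SE) for 60 against 30 days (edgeR, adjusted p = 0.000954) and 0.94 ± 0.15 for 90 against 30 days (adjusted p = 0.00153), and 0 of 3 tested sublingual markers did. Immune markers summed to 18.2 to 29.7, 15.5 to 26.3 and 33.2 to 83.1 CPM at the 3 times, and 0 of the 3 tested passed. Myoepithelial and basal markers summed to 294 to 564 CPM over all libraries, other duct markers to 513 to 617 and adipose markers to 7.28 to 11.6, and 0 of these passed in any comparison. Xist measured 184 to 319 CPM in all 9 libraries, and the Y-linked genes Ddx3y, Eif2s3y, Kdm5d and Uty had 0 counts.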

How the data were processed

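The authors deposited raw read counts per Ensembl gene; fastp, STAR, featureCounts and the mm10 build are named, without versions or settings, in the submitters' processing notes. The release of the annotation, use of strand and handling of reads matching several genes are not given in the sources used here. Columns were matched to samples by day and sample number, and 3 columns that match no listed sample were not used. Symbols came from a table of gene identifiers (54409 of 54532 matched) and positions and transcripts from GENCODE mouse release 21 (GRCm38). Transcript length is that of the gene's lowest-numbered transcript name. The 7 promoters, matched by symbol, came from RefSeq (GRCm38.p6).

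Genes were filtered with filterByExpr (minimum count 10), scaled with TMM and fitted in edgeR 4.0.16 (R 4.3.3), all 9 libraries together with a term for time point, robust dispersion (common biological coefficient of variation 0.150), quasi-likelihood tests and Benjamini-Hochberg adjustment over 15224 genes. DESeq2 1.42.0 was an alternative, beside other scalings and filters, leaving out each sample, and a block for the sample number. Ratios and shares per transcript length, and levels and shares of single genes per length of all annotated exons, were added after seeing the data. The test was tested on simulated data for 60 against 30 days over 15224 genes: recovery was 89% for a log2 change of 2 and 70% for one of 1, and 3.64% of calls were genes left unchanged. Members and lists were chosen with earlier results of these data known. The rule for named genes takes all members, other secretoglobins with a mean of at least 0.5 CPM, the 3 genes most like Scgb1b27, Scgb2b27 and any called member, and the granular duct and sex-linked lists where a result turns on them. Some genes of the lists are not reported here, and the list values were computed without them. Marker lists of myoepithelial, other duct, immune and adipose cells were also summed.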

Additional observations from a re-analysis of the deposited data

How the results depend on the processing

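Over all genes, library-size scaling alone called 90 genes between 30 and 60 days in place of 238, and no filter on low counts called 459. Between 60 and 90 days DESeq2 called 141, no filter 354 and the replicate block 92 in place of 39. Between 30 and 90 days no filter called 1045 in place of 544. With samples left out in turn these counts ran from 73 to 244, 16 to 103 and 184 to 703. The count of members called was 1, or 0 with samples left out, between 30 and 60 and between 30 and 90 days; a minimum of 10 counts in every library gave 0 for both, since Scgb2b24 is then not tested, and between 60 and 90 days it was 0 throughout. Among 14 alternatives for each comparison, Scgb2b24 lost its call under 5 between 30 and 60 days (log2 fold change from 1.64 to 2.86) and under 5 between 30 and 90 days (1.88 to 2.64). Its difference between 30 and 60 days was known when it was chosen, and it entered the fit through its later samples. Nothing is therefore read from the calls it kept or lost. Signs turned for values that never passed: Scgb1b27 at 60 against 30 days (-0.068 without 30-day sample 3, -0.143 and -0.007 without 60-day samples 1 and 2; -0.143 to 0.167 with samples left out), Scgb2b26 at 60 against 30 days (-0.041 without 30-day sample 3; up to 0.259), at 90 against 60 days (0.054 with library-size scaling) and at 90 against 30 days (0.201 with library-size scaling, 0.142 without 30-day sample 1, 0.083 and 0.026 without 90-day samples 1 and 2; down to -0.219), and Scgb2b24 at 90 against 60 days (0.45 without 60-day sample 1; down to -0.531). The ratio of alpha to beta-gamma was 0.925 in counts and 1.00 per kilobase of all exons or 0.990 per kilobase of transcript at 30 days, and 0.867 in counts against 0.933 per kilobase of transcript at 90 days. Scgb2b26 made up 25.8%, 28.9% and 30.4% of the beta-gamma counts at 30, 60 and 90 days, 48.5%, 52.4% and 54.2% per kilobase of all exons, and 27.9% per kilobase of transcript at 90 days. These last shifts come from the lengths used; the cause of the others was not tested. Equal sample numbers did not pair the samples: 1 of 9 same-number pairs had a correlation of deviations over 0.1 (from -0.06 to 0.191). With the replicate block the log2 fold change of Scgb2b24 was 2.19 from 30 to 60 days, -0.13 from 60 to 90 days, and from 30 to 90 days it was 2.07, and it changed no call of a member. Counts of 3 to 9 for Scgb2b24 at 30 days limit that comparison.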
